A study of Mus musculus with 15 samples.

Results

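The genes described here are 8 transcription factors of mesenchymal cells: Prrx1, Twist1, Twist2, Osr1, Tcf21, Ebf1, Ebf2 and Klf4. They are given by symbol, with no threshold on a measured value, and all 8 were among the 10222 gene symbols of the deposited table. Their RNA was measured by RNA-seq in 5 populations sorted from C57BL/6 mice that carried a citrine reporter at Il33, heterozygous in the WAT sort, with 3 libraries from independent experiments for each population and 15 in all. No treatment is named for these mice, and their age and sex were not given in the sources used here. From white adipose tissue (WAT), stromal cells that were negative for lineage markers, CD45, EpCAM, CD31 and CD24 and positive for PDGFRα, CD34, Sca1 and podoplanin were divided by the reporter into Il33+ WAT-MSCs and Il33- WAT-MSCs, which the sample labels call mesenteric MSC. The other populations were lung Il33+ MSCs, WAT endothelial cells sorted on CD31 and lung epithelial cells sorted on EpCAM. The gate of the lung MSCs is not given separately in the sources used here. Because PDGFRα and podoplanin were sorted on in WAT, the levels of Pdgfra and Pdpn are not findings between these populations.

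PRRX1 is a paired-type homeodomain factor of limb, craniofacial and fibroblast lineages. TWIST1, TWIST2 and TCF21 are basic helix-loop-helix (bHLH) factors, which bind E-box sequences as pairs with the widely expressed E proteins. The TWIST factors act in mesoderm and in epithelial-mesenchymal transition, and TCF21 marks the mesenchyme of visceral organs and visceral fat. OSR1 is a zinc-finger factor of intermediate mesoderm and of connective tissue progenitors, KLF4 is a zinc-finger factor of epithelial barriers, vessels and stem cells, and EBF1 and EBF2 are helix-loop-helix factors known both from B lymphocytes (EBF1) and from adipocyte precursors.

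The genes lie at 8 separate loci of the mouse genome (GRCm38, GENCODE annotation). Twist1 spans chr12:33957671-33959829 and Osr1 spans chr12:9570116-9581500, both on the plus strand. Prrx1 lies at chr1:163245119-163313710 (minus strand) and Twist2 at chr1:91801461-91848028 (plus strand). Tcf21 lies at chr10:22817281-22820174 (minus strand), Ebf1 at chr11:44617317-45008091 (plus strand), Ebf2 at chr14:67233292-67430918 (plus strand) and Klf4 at chr4:55527143-55532466 (minus strand). Exons of the antisense gene Gm29100 overlap those of Twist2, and exons of Gm10860 overlap those of Ebf2. The counting is not stated to have used strand, so reads of these pairs cannot be told apart.

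Promoters of 6 of the 8 genes were found in RefSeq (GRCm38.p6), each running from 250 bases before to 50 bases after a start site, and 5 are shown. The Twist1 and Twist2 promoters are shown because the ratio of this pair did not overlap between Il33+ WAT-MSCs and the other stroma, the Ebf1 promoters because Ebf1 separated adipose from lung stroma, and the Klf4 promoter because Klf4 was the most abundant of the 8 genes. Capitals mark matches, on either strand, to the E-box CANNTG, the GC-box CCGCCC and the TATA element TATAAA, and no marked motif overlaps one of another kind. The regions are chr12:33957421-33957720 (plus strand) for Twist1, chr1:91801211-91801510 (plus strand) for Twist2, chr11:44617850-44618149 and chr11:44619978-44620277 (plus strand) for the Ebf1 start sites 1 and 2, and chr4:55532426-55532725 (minus strand) for Klf4.
Twist1: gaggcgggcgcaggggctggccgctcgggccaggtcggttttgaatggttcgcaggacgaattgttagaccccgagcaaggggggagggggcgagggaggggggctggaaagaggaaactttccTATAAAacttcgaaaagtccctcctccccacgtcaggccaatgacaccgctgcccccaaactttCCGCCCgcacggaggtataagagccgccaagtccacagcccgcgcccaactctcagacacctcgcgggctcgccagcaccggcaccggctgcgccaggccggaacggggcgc
Twist2: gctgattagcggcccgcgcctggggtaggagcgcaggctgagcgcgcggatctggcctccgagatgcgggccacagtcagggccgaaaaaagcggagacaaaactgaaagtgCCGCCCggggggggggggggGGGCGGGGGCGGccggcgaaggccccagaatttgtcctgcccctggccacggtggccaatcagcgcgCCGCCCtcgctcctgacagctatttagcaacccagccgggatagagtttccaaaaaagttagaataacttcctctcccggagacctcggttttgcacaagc
Ebf1 start site 1: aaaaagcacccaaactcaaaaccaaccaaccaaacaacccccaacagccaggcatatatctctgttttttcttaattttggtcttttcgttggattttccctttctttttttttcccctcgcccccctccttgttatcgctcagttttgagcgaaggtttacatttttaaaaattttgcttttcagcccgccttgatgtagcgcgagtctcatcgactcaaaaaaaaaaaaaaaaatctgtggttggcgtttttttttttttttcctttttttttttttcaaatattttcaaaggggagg
Ebf1 start site 2: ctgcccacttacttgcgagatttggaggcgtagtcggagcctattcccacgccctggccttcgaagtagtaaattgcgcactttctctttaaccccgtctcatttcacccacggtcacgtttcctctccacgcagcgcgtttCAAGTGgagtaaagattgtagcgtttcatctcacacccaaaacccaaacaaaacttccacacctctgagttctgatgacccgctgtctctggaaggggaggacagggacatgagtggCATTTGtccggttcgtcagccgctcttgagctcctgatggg
Klf4: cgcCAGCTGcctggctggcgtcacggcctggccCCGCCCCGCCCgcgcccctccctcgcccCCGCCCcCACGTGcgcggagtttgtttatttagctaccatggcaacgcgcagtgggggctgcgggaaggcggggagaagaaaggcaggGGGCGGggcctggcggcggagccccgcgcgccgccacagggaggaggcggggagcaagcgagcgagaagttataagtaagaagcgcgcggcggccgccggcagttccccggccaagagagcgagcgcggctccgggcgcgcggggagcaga

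The Klf4 promoter had a GC content of 74.3%, with 4 GC-boxes and 2 E-boxes, and that of Twist2 had 64.7% GC with 4 GC-boxes. That of Twist1 had 66.0% GC, 1 GC-box and 1 TATA element. The start sites of Ebf1 differed from each other, at 36.7% GC with no match and at 53.0% GC with 2 E-boxes. The Prrx1 and Tcf21 promoters held none of these motifs. Among 32851 mouse promoters of the same length the median GC content was 52.7%, and 72.3% held an E-box, 35.7% a GC-box and 13.6% a TATA element. The palindrome bound by EBF factors, searched as TCCC and GGGA parted by any 2 bases, occurred in 0.904% of all promoters and in none of the 6 genes' windows. These matches describe letters in a window and not binding.

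Levels are given in RPKM (reads scaled for transcript length and for the mapped reads of the library), which the authors computed and which were summed here over the listed transcripts of a symbol. Between 42711843 and 60773158 alignments were recorded per library, so that 1 RPKM stands for about 42.7 to 60.8 reads per kilobase if those alignments were the divisor. The sorted populations carried their defining markers: Pdgfra was at 53.3 to 89.8 RPKM in Il33+ WAT-MSCs, Pecam1 at 145 to 198 RPKM in endothelial cells and Epcam at 25.9 to 39.8 RPKM in epithelial cells. The WAT endothelial libraries also held RNA of the stromal markers. Over 10 stromal marker genes the summed RPKM was 1920 to 4026 there, against 5755 to 7604 in Il33+ WAT-MSCs. Replicate 1 of the endothelial cells stood apart, with 10.9% of listed transcripts at 0. In the epithelial libraries Scgb1a1 alone took 57.7 to 62.9% of the summed RPKM. RPKM is scaled for transcript length, so this percentage is not the share of reads that Scgb1a1 took. How far its reads lowered the values of other genes cannot be told from it. In such bulk samples, fewer cells of a type and less RNA per cell cannot be told apart.

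Klf4 was the most abundant of the 8 genes in every population, and was among the 100 most abundant of all 10222 genes in the stromal and endothelial cells. Il33+ WAT-MSCs held 321.9, 422.7 and 347.9 RPKM of Klf4 in replicates 1, 2 and 3, a mean of 364 ± 52.3 (SD, n = 3) that ranked 52nd. Il33- WAT-MSCs held 259.8, 387.5 and 417.1 RPKM, and lung MSCs 309.4, 301.7 and 279.2 RPKM. Neighbouring populations in this order overlapped, as did lung MSCs and endothelial cells. Endothelial cells held 135.0, 257.1 and 337.7 RPKM of Klf4. Epithelial cells, at 16.9, 25.7 and 26.5 RPKM, lay below all other libraries.

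Osr1, Prrx1 and Tcf21 formed a middle range. Osr1 was at 37.4, 61.9 and 55.5 RPKM in Il33+ WAT-MSCs and at 61.6, 48.5 and 54.0 RPKM in lung MSCs, and these ranges overlapped. It was at 29.5, 18.03 and 37.4 RPKM in Il33- WAT-MSCs and at 13.8, 26.3 and 45.8 RPKM in endothelial cells. Epithelial cells held no more than 1.43 RPKM of Osr1. Prrx1, in contrast, fell into separate levels. Lung MSCs were highest, at 64.7, 48.1 and 40.9 RPKM, followed by Il33+ WAT-MSCs at 28.5, 39.1 and 31.7 RPKM and Il33- WAT-MSCs at 15.7, 18.3 and 17.8 RPKM. No library of one of these 3 stromal populations reached into the range of the next for Prrx1. Endothelial cells, at 17.6, 10.7 and 13.4 RPKM, overlapped Il33- WAT-MSCs, and epithelial cells were at 0.85, 0.71 and 3.46 RPKM.

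Tcf21, the factor of visceral mesenchyme, was at 28.6, 45.6 and 27.4 RPKM in Il33+ WAT-MSCs. It was at 7.69, 38.1 and 46.6 RPKM in Il33- WAT-MSCs, where replicate 1 lay far below the others and the SD of 20.5 was large beside the mean of 30.8. Lung MSCs were closer together, at 20.2, 27.1 and 25.2 RPKM. Endothelial cells spread from 2.49 RPKM in replicate 1 to 9.98 and 19.0 RPKM in replicates 2 and 3, below all lung MSC libraries, and epithelial cells were at 1.52, 1.26 and 0.83 RPKM.

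The EBF pair was higher in adipose than in lung stroma. Ebf1 was at 55.5, 82.4 and 46.0 RPKM in Il33+ WAT-MSCs and at 47.0, 63.8 and 47.9 RPKM in Il33- WAT-MSCs, which overlapped. Lung MSCs held 17.8, 14.9 and 12.5 RPKM, below the endothelial cells of WAT, at 35.8, 35.0 and 21.8 RPKM. Ebf2 had the same division between adipose and lung stroma. It was at 38.9, 64.8 and 36.2 RPKM in Il33+ WAT-MSCs, at 52.3, 65.1 and 61.3 RPKM in Il33- WAT-MSCs and at 20.6, 17.3 and 12.3 RPKM in lung MSCs. Endothelial cells, at 29.2, 18.7 and 12.9 RPKM of Ebf2, overlapped lung MSCs. Epithelial cells held at most 1.34 RPKM of Ebf1 and 0.55 RPKM of Ebf2.

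The TWIST factors were the scarcest of the 8. Twist2 was at 9.88, 7.07 and 5.41 RPKM in Il33+ WAT-MSCs, at 8.67, 10.3 and 10.1 RPKM in Il33- WAT-MSCs and at 12.01, 8.39 and 8.82 RPKM in lung MSCs, and the 3 stromal ranges overlapped. Endothelial replicate 1 was listed at 0 for Twist2, with 1.43 and 2.75 RPKM in replicates 2 and 3. Twist1 was lower still. It was at 0.55, 0.69 and 0.38 RPKM in Il33+ WAT-MSCs, below all libraries of Il33- WAT-MSCs (2.87, 1.88 and 2.23 RPKM) and of lung MSCs (3.62, 1.24 and 1.54 RPKM). In endothelial cells Twist1 was listed at 0 in replicate 1 and was at 1.49 and 1.78 RPKM in replicates 2 and 3. In epithelial cells both genes were listed at 0 in 2 of 3 libraries and at 0.02 RPKM in the other.

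**Figure D1:**
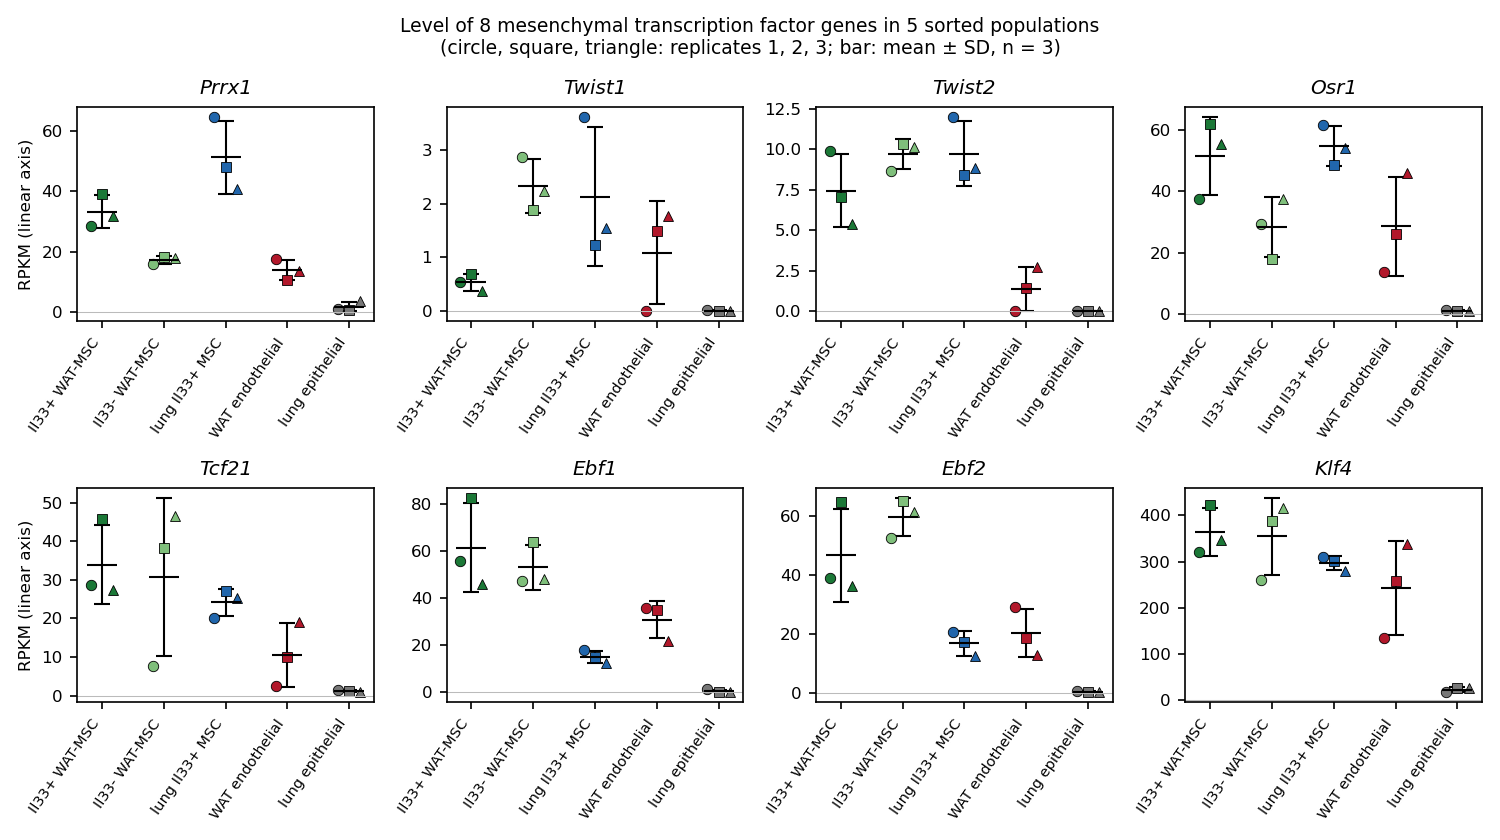
Each panel plots the RPKM of a gene (vertical axis, linear, its own scale) in the libraries of the 5 populations, with circles, squares and triangles for replicates 1, 2 and 3 and bars for the mean ± SD (n = 3). Lung epithelial libraries lie near 0 for every gene except Klf4, where they reach 26.5 RPKM, and Ebf1 and Ebf2 are lower in lung MSCs than in both WAT-MSC populations.

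Prrx1, Ebf1 and Ebf2 had more than 1 listed transcript, and their levels above are sums. The 2 transcripts of Ebf2 each took 48.8 to 51.2% of its RPKM in all 15 libraries, a division so even that they were not resolved from each other. Of the 4 Ebf1 transcripts, NM_001290709 and NM_007897 each took 35.7 to 43.1% in the WAT-MSC libraries. In lung MSCs, NM_001290710 took 19.6% of Ebf1 in replicate 1 but 0.135 and 0.561% in replicates 2 and 3, so its share was not stable between replicates. NM_001025570, the least abundant of the 3 Prrx1 transcripts, took 2.30 to 16.7% of Prrx1 in the stromal libraries.

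The comparison of Il33+ with Il33- WAT-MSCs asks whether stromal cells of the same tissue and sort differ with the activity of the Il33 reporter. None of the 8 genes passed the threshold. In this comparison 133 of 8448 tested genes passed, which is 1.57%, with 0.923% higher and 0.651% lower in Il33+ WAT-MSCs (limma on log2(RPKM + 1), Benjamini-Hochberg adjusted p under 0.05), and 3 of the 8 genes had an unadjusted p under 0.05, as did 980 (11.6%) of all genes tested. Prrx1 had a log2 fold change of 0.89 (SE 0.23, limma adjusted p = 0.1002), and its libraries did not overlap between the groups. Osr1 had a log2 fold change of 0.87 (SE 0.30, limma adjusted p = 0.260), with overlapping libraries. For Twist1 the log2 fold change was -1.11 (SE 0.35, limma adjusted p = 0.200), the libraries of Il33+ WAT-MSCs all being lower. Adding 1 before the log compresses changes of genes as low as Twist1. Prrx1 was the only 1 of the 8 genes with all Il33+ libraries higher, where 8.84% of tested genes had this order, and Twist1 the only 1 with all lower, where 8.65% had it. The test asked for 1 RPKM in at least 3 libraries, which Twist1 reached only in the Il33- group. Its order between the groups was therefore fixed by the filter.

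For the other 5 genes the values of Il33+ and Il33- WAT-MSCs overlapped, which leaves room for differences of either direction. The 95% intervals of their log2 fold changes ran from -1.001 to 0.26 for Twist2, from -0.74 to 1.59 for Tcf21, from -0.39 to 0.75 for Ebf1, from -0.96 to 0.18 for Ebf2 and from -0.50 to 0.62 for Klf4. The median over the 8 genes was 0.12, beside -0.01 over all genes tested. Within the sequencing lanes 1 and 2, the log2 differences of Prrx1 were 0.94 and 0.80 and those of Twist1 were -1.04 and -1.23. Without replicate 1 of the Il33- WAT-MSCs, the value of Tcf21 turned from 0.42 to -0.35.

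The TWIST genes stood in different ratios with the reporter on and off. The ratio of Twist2 to Twist1 RPKM, which is taken within a library, was 17.96, 10.2 and 14.2 in Il33+ WAT-MSCs. It was 3.02, 5.50 and 4.54 in Il33- WAT-MSCs and 3.32, 6.77 and 5.73 in lung MSCs, so Il33+ WAT-MSCs lay above both without overlap. The denominator is under 1 RPKM in Il33+ WAT-MSCs, and the ratio moves strongly with small changes there. For Ebf1 over Ebf2 the ratio was 1.43, 1.27 and 1.27 in Il33+ WAT-MSCs, 0.899, 0.981 and 0.782 in Il33- WAT-MSCs and 0.864, 0.859 and 1.01 in lung MSCs. Endothelial cells were at 1.23, 1.87 and 1.70. These ratios were examined after the levels were seen and are given without a test.

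**Figure D2:**
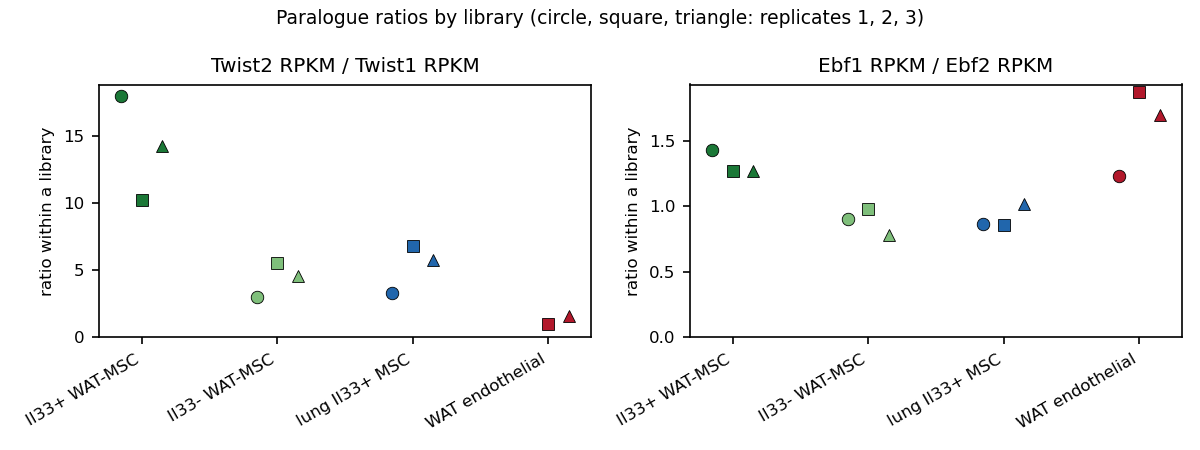
Ratio of Twist2 to Twist1 (left) and of Ebf1 to Ebf2 (right) in each library of 4 populations, on linear axes from 0, with circles, squares and triangles for replicates 1, 2 and 3. On the left Il33+ WAT-MSCs are at 10.2 to 17.96 and all other libraries at or below 6.77, and endothelial replicate 1 is missing because Twist1 is listed at 0 there.

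Around the 8 genes, 5 lists of related factors were followed: their paralogues, the E proteins and ID inhibitors that control bHLH pairing, further factors of epithelial-mesenchymal transition, adipocyte lineage factors with partners of the EBF proteins, and other mesenchymal factors. Between Il33+ and Il33- WAT-MSCs, 0 of 11 tested paralogues, 0 of 5 E and ID genes and 0 of 4 transition factors passed in limma, with 3, 1 and 0 of them at an unadjusted p under 0.05. The abundant Klf6, a relative of Klf4, averaged 108 RPKM with the reporter on and 152 RPKM with it off (limma adjusted p = 0.542), and Zeb2, a repressor of epithelial genes, at 79.5 and 80.3 RPKM (limma adjusted p = 0.961). Zfp423, which encodes a zinc-finger partner of EBF proteins in preadipocytes, was higher in Il33+ WAT-MSCs, at 11.02, 12.4 and 14.3 RPKM against 4.86, 2.93 and 5.45 RPKM. Its log2 fold change was 1.35 (limma adjusted p = 0.0478, close to the threshold of 0.05), and it was the only 1 of 5 adipocyte lineage factors and EBF partners that passed. The calls of list genes were not followed in the alternative fits described below.

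Of 14 other mesenchymal factors, the homeobox gene Meox2 was higher and the cartilage factor Sox9 lower in Il33+ WAT-MSCs. Meox2 was at 18.3, 10.8 and 13.7 RPKM in Il33+ and at 3.44, 0.94 and 1.39 RPKM in the Il33- group, a log2 fold change of 2.45 (limma adjusted p = 0.00797). Sox9 was at 6.44, 6.40 and 8.72 RPKM in Il33+ and at 18.02, 33.6 and 35.9 RPKM in the Il33- group, a log2 fold change of -1.83 (limma adjusted p = 0.0128). For both genes the groups did not overlap. Sums over marker genes of other cell types did not overlap either in 3 of 8 sets. The mesothelial sum (7 genes) was 39.3, 104 and 127 RPKM in Il33+ and 23.7, 36.9 and 21.5 RPKM in the Il33- group. Upk3b (7.13 to 20.8 and 0 to 3.44 RPKM), Upk1b and Gpm6a did not overlap, whereas Msln, Lrrn4, Krt19 and Wt1 did. The leukocyte sum (6 of 8 genes listed) was 7.27 to 12.3 RPKM with the reporter on and 19.9 to 41.7 RPKM with it off. Among its genes only Laptm5 did not overlap. Pericyte and smooth muscle markers (10 genes) summed to 46.8 to 53.5 and 28.2 to 43.0 RPKM. Abcc9 and Rgs5 were higher in Il33+ WAT-MSCs, Pdgfrb and Notch3 were lower, and the other genes of this set overlapped. The part of these marker sets in the differences between these groups was not tested. The lists' median log2 fold changes lay between -0.18 and 0.27, beside -0.01 over all genes tested.

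The comparison of Il33+ MSCs from WAT and lung asks which factors differ by tissue under the same reporter. Since the gate of the lung cells is not given separately, tissue and sort cannot be told apart. Ebf1 and Ebf2 were higher in WAT, and none of the 8 genes was lower past the threshold. That is 2 of 8 genes, where 513 of 8554 tested genes (6.0%) passed in either direction with 2.5% higher and 3.5% lower in WAT. Ebf1 averaged 61.3 ± 18.9 RPKM in WAT and 15.05 ± 2.67 RPKM in lung (SD, n = 3), a log2 fold change of 1.93 (SE 0.25, limma adjusted p = 0.00115). Ebf2 averaged 46.7 ± 15.8 and 16.7 ± 4.19 RPKM (SD, n = 3), a log2 fold change of 1.41 (SE 0.27, limma adjusted p = 0.0119). All WAT libraries lay above all lung libraries for both genes. Within lanes 1 and 2 the log2 differences were 1.87 and 1.69 for Ebf1 and 1.25 and 1.26 for Ebf2. Without replicate 2 of the lung MSCs, Ebf2 kept its size at 1.44 but missed the threshold (limma adjusted p = 0.0538).

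The third EBF gene of the table, Ebf3, had the largest gap between the tissues within this family. It was at 5.11, 11.2 and 8.14 RPKM in Il33+ WAT-MSCs and at 0.20, 0.31 and 0.34 RPKM in lung MSCs, a log2 fold change of 2.78 (SE 0.32, limma adjusted p = 0.00069). Il33- WAT-MSCs, at 11.3, 21.5 and 21.2 RPKM, and WAT endothelial cells, at 22.2, 16.6 and 15.2 RPKM, also held Ebf3, whereas epithelial cells held at most 0.10 RPKM. Ebf3 was the only 1 of 11 tested paralogues that passed between the tissues. It was under 1 RPKM in all lung MSC libraries and entered the test through its WAT libraries, so this call is a description.

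Prrx1 and Twist1 had the opposite order, with all WAT libraries below those of lung. Their log2 fold changes were -0.60 (95% interval -1.09 to -0.11, limma adjusted p = 0.181) and -0.95 (95% interval -1.72 to -0.19, limma adjusted p = 0.170). Tcf21 and Klf4 had all WAT libraries above lung by small amounts, with log2 fold changes of 0.44 (95% interval -0.09 to 0.97) and 0.29 (95% interval -0.13 to 0.70). In all, 4 of the 8 genes had all WAT libraries higher, where 12.1% of tested genes had this order, and 2 had all lower, where 11% had it. Of these 2, Twist1 was under 1 RPKM in all WAT libraries and entered the test through its lung libraries. Its order was therefore fixed by the filter. Twist2 (95% interval -0.96 to 0.23) and Osr1 (95% interval -0.60 to 0.39) overlapped between the tissues. The median over the 8 genes was 0.09, beside 0.03 over all genes tested.

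In the related lists 6 genes passed between the stromal tissues, Ebf3 and 5 of the other mesenchymal factors. An unadjusted p under 0.05 was reached by 4 of the 11 paralogues, 10 of the 14 other mesenchymal factors and 17.4% of all genes tested. Of 5 E and ID genes, 4 transition factors and 5 adipocyte lineage factors none passed in limma, with 1, 1 and 0 at an unadjusted p under 0.05, Id3 being nearest at 122 RPKM in WAT and 188 RPKM in lung (limma adjusted p = 0.0664). Of 14 other mesenchymal factors, 4 were higher in WAT. Wt1, a zinc-finger factor of mesothelium and visceral fat, averaged 11.8 RPKM in WAT and 0.227 RPKM in lung (log2 fold change 3.398, limma adjusted p = 0.000195). The bHLH factor Hand2 averaged 3.53 and 0.00667 RPKM (2.15, limma adjusted p = 0.00176), Meox1 4.87 and 0.383 RPKM (2.07, limma adjusted p = 0.00511), and the hedgehog pathway factor Gli3 11.1 and 4.76 RPKM (1.06, limma adjusted p = 0.0291). Like Ebf3, the genes Wt1, Hand2 and Meox1 were under 1 RPKM in all lung MSC libraries. They entered the test through their WAT libraries, so these calls are descriptions. Gli1, a target of hedgehog signalling named after its values were seen, was the only 1 lower in WAT, at 5.13 against 11.3 RPKM (-1.01, limma adjusted p = 0.0359). Markers of other cell types moved with the tissue, and of 8 sets the stromal markers alone overlapped. The mesothelial sum, Wt1 included, was 39.3 to 127 RPKM in Il33+ WAT-MSCs and 5.03 to 8.29 RPKM in lung MSCs, and the only listed adipocyte marker, Fabp4, was at 4.50 to 8.64 and 0.63 to 3.21 RPKM. The other sums were lower in WAT. Leukocyte markers summed to 7.27 to 12.3 RPKM in WAT and 137 to 168 RPKM in lung, pericyte and smooth muscle markers to 46.8 to 53.5 and 129 to 138 RPKM, endothelial markers to 22.8 to 46.6 and 49.0 to 80.2 RPKM, epithelial markers to 73.3 to 145 and 182 to 546 RPKM and immediate early genes to 3671 to 6964 and 8020 to 9199 RPKM. Lyz2 made up most of the lung leukocyte sum, at 105 to 145 RPKM, and was at 658 to 1301 RPKM in epithelial cells. Csf1r overlapped, and the other listed leukocyte markers were higher in lung. In the pericyte set Abcc9 (77.0 to 93.0 RPKM in lung), Kcnj8 and Mcam were higher in lung. Rgs5 (0.18 to 0.81 against 8.29 to 16.4 RPKM) and Cspg4 were lower there, and the others overlapped. In the endothelial set Pecam1, Cdh5, Ptprb and Cd93 were higher in lung, and the others overlapped. Of the epithelial markers Krt8 was lower in lung (0.07 to 0.76 against 0.89 to 4.22 RPKM). Epcam, Krt18 and Scgb1a1 overlapped, and the other epithelial markers were higher in lung. Among immediate early genes Fos, Egr1 and Dusp1 were higher in lung, and the others overlapped. The part of these marker sets in these differences was not tested. The lists' median log2 fold changes lay between -0.40 (E and ID genes) and 0.41 (paralogues), with -0.15 for the other mesenchymal factors, beside 0.03 over all genes tested.

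**Figure D3:**
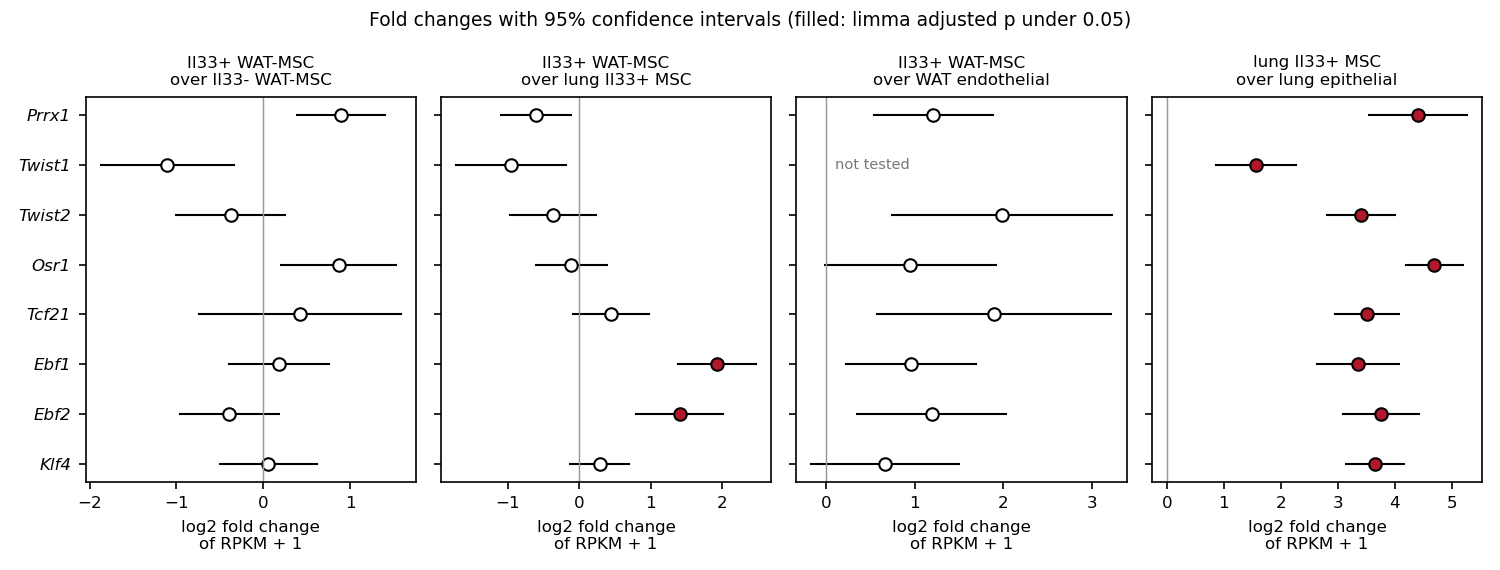
Log2 fold change of RPKM + 1 (horizontal axis, points) with 95% confidence intervals (lines) of the 8 genes in the 4 comparisons, filled where the limma adjusted p is under 0.05, with a scale of its own in each panel. Ebf1 (1.93) and Ebf2 (1.41) are the filled points of the second panel, all 8 points of the last panel are filled, and Twist1 was not tested against endothelial cells.

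The comparison of Il33+ WAT-MSCs with WAT endothelial cells sets stroma against endothelium of WAT. The sample labels name the mesentery for the stromal cells and only WAT for the endothelial cells, so a shared depot is not given. Twist1 reached 1 RPKM in 2 of the 6 libraries, where the test asked for 3, and was not tested. The other 7 genes had positive log2 fold changes, from 0.67 for Klf4 to 1.98 for Twist2, and 0 of 7 passed the threshold in limma, where 338 of 8665 genes (3.9%) passed in either direction with 0.565% higher and 3.34% lower in the WAT-MSCs. An unadjusted p under 0.05 was reached by 1335 (15.4%) of all genes tested and by 5 of the 7: Prrx1 (1.21, limma adjusted p = 0.0643), Twist2 (1.98, limma adjusted p = 0.0989), Tcf21 (1.89, limma adjusted p = 0.139), Ebf2 (1.19, limma adjusted p = 0.141) and Ebf1 (0.96, limma adjusted p = 0.178). For these 5 genes all WAT-MSC libraries lay above all endothelial libraries, an order that 13% of tested genes had. Osr1 (95% interval -0.01 to 1.91) and Klf4 (95% interval -0.16 to 1.497) overlapped. The median over all genes was 0.18, and 0.03 with median-ratio scaling of the libraries, under which none of the 7 changed sign.

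These calls depended on the libraries and samples in the fit. A fit of all 15 libraries called Prrx1, Twist2 and Ebf2 (limma adjusted p = 0.0302, 0.00389 and 0.0248). Without endothelial replicate 1, Prrx1 and Ebf2 passed (limma adjusted p = 0.0192 and 0.0355), and without replicate 3, Tcf21 and Twist2 passed (limma adjusted p = 0.0317 and 0.0472).

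The endothelial libraries differed among themselves in the 8 genes. Taken as a percentage of the Il33+ WAT-MSC mean, replicates 1, 2 and 3 held 26.7, 51.0 and 88.9% of Osr1, 7.36, 29.5 and 56.0% of Tcf21 and 37.1, 70.6 and 92.7% of Klf4. Replicate 1 was lowest for these 3 genes and for both TWIST genes. The other genes had another order, with replicate 1 highest. Prrx1 was at 53.1, 32.2 and 40.4%, Ebf1 at 58.5, 57.0 and 35.6% and Ebf2 at 62.5, 40.0 and 27.6%. The 10 stromal marker genes had medians of 31.0, 32.9 and 64.8% in the same libraries. All of them except Pdpn (65.1, 56.2 and 65.0%) were highest in replicate 3, where Ebf1 and Ebf2 were lowest. The source of these levels was not tested.

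Markers of other cell types moved with the endothelial libraries too. The sum over 10 pericyte and smooth muscle markers was 300.3, 304.5 and 239.7 RPKM in endothelial replicates 1, 2 and 3, against 46.8 to 53.5 RPKM in Il33+ WAT-MSCs, with Rgs5 at 140.7 to 215 RPKM and at 8.29 to 16.4 RPKM. Abcc9 was lower in endothelial cells (14.2 to 17.4 against 17.6 to 20.7 RPKM). Kcnj8 and Pdgfrb overlapped, and the other genes of this set were higher in endothelial cells. The sum over 10 endothelial markers was 836, 685 and 679.7 RPKM, against 22.8 to 46.6 RPKM. Leukocyte markers, 6 of 8 being listed, summed to 9.38, 171 and 63.6 RPKM, against 7.27 to 12.3 RPKM. The mesothelial sum was 56.6, 188 and 217 RPKM, in the same order of replicates as Osr1, Tcf21 and Klf4. Its range in Il33+ WAT-MSCs was 39.3 to 127 RPKM. Of its 7 genes, Upk3b (17.2, 43.1 and 64.2 RPKM), Msln and Krt19 had this order of replicates. Upk1b, Lrrn4, Wt1 and Gpm6a were highest in replicate 2. The sum of 8 immediate early genes, which tissue digestion can induce, was 2843, 4349 and 7109 RPKM, and the range in Il33+ WAT-MSCs was 3671 to 6964 RPKM. The part of these cells and of sample handling in the levels of the 8 genes was not tested.

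**Figure D4:**
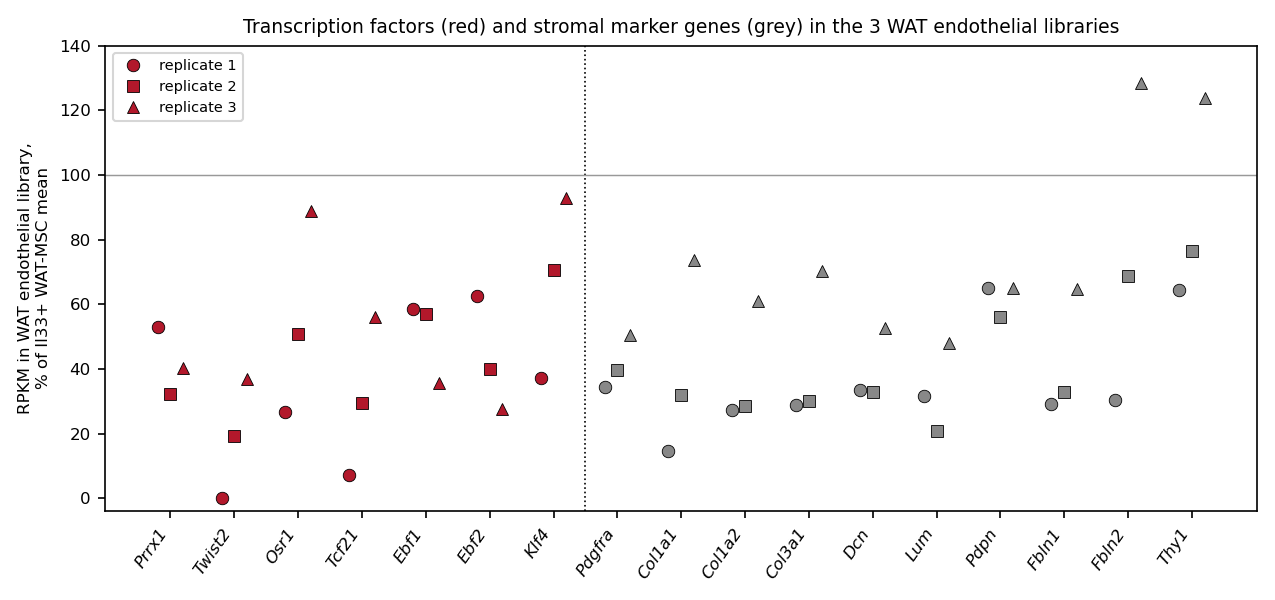
RPKM in each of the 3 WAT endothelial libraries as a percentage of the Il33+ WAT-MSC mean (vertical axis, linear) for 7 of the 8 transcription factor genes (red) and 10 stromal marker genes (grey), with circles, squares and triangles for replicates 1, 2 and 3. Replicate 3 is highest for Twist2, Osr1, Tcf21 and Klf4 and lowest for Ebf1 and Ebf2. Twist1 is left out because it is below 1 RPKM in all Il33+ WAT-MSC libraries.

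Among the related lists, 1 gene passed between Il33+ WAT-MSCs and endothelial cells. The bHLH factor Tcf15 was lower in the WAT-MSCs, at 0.147 RPKM against 6.71 RPKM (log2 fold change -2.68, limma adjusted p = 0.0128). It was under 1 RPKM in all Il33+ WAT-MSC libraries and entered the test through its endothelial libraries, so this call is a description. None of 11 paralogues, 5 E and ID genes, 4 transition factors and 6 adipocyte lineage factors passed in limma, with 3, 0, 1 and 2 at an unadjusted p under 0.05. The lists' medians lay between -0.04 and 0.43, beside 0.18 over all genes tested. Zeb2, at 79.5 and 34.6 RPKM, had a limma adjusted p of 0.0716. Klf6 was at 108 and 110 RPKM (limma adjusted p = 0.960).

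The comparison of lung Il33+ MSCs with lung epithelial cells sets stroma against epithelium. All 8 genes were higher in the MSCs in limma, where 4019 of 9352 tested genes (43.0%) passed in either direction with 24.4% higher and 18.5% lower and 49.9% had an unadjusted p under 0.05. The direction of calls over all genes depended on the scaling: 2285 genes were higher and 1734 lower as deposited, and 1973 higher and 2114 lower after median-ratio scaling, which moved the median of all genes from 0.13 to -0.06. Of the 8 genes none reached 1 RPKM in all epithelial libraries except Klf4, so that the other 7 entered the test through their MSC libraries. The 4 comparisons share libraries, the Il33+ WAT-MSCs entering the first 3 and the lung MSCs the second and the last.

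With a pseudocount of 1, Osr1 had the largest log2 fold change of the 8, 4.69 (SE 0.22, limma adjusted p = 8.45e-07), with means of 54.7 ± 6.58 and 1.16 ± 0.236 RPKM (SD, n = 3). Prrx1 followed at 4.41 (SE 0.38, limma adjusted p = 1.56e-05), with means of 51.2 ± 12.2 and 1.67 ± 1.55 RPKM (SD, n = 3). The changes of Ebf2, Klf4, Tcf21, Twist2 and Ebf1 lay between 3.36 and 3.76, with limma adjusted p-values from 2.31e-06 to 2.94e-05. Twist1 changed least on this scale, by 1.56 (SE 0.31, limma adjusted p = 0.00286). This order rests on the pseudocount: with 0.1 in place of 1, Twist2 (6.51), Ebf2 (5.57) and Osr1 (5.45) were the highest, Twist1 was at 4.24 and Klf4 was the lowest at 3.71. Klf4 alone kept a clear level in epithelial cells, at 23.0 ± 5.33 RPKM (SD, n = 3), which ranked 776th there, and MSCs held 12.9 times as much. All MSC libraries lay above all epithelial libraries for all 8 genes, where 31.2% of tested genes had this order. Stromal markers had medians of 1.22 to 2.42% of the lung MSC mean in the epithelial libraries, and the 8 genes had medians of 1.52 to 2.95%. Of 8 marker sets 6 did not overlap. Immediate early genes summed to 8020 to 9199 RPKM in MSCs and 986 to 1839 RPKM in epithelial cells, each being higher in MSCs. Leukocyte markers summed to 137 to 168 and 698 to 1336 RPKM, with Lyz2 alone apart. The pericyte sum was higher (Abcc9, Kcnj8 and Pdgfrb apart) and the mesothelial sum lower in MSCs (Krt19 alone apart). The part of these sets in the levels of the 8 genes was not tested.

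Within the related lists all 4 transition factors were higher in lung MSCs. As with the 8 genes, list members under 1 RPKM in epithelial cells entered the test through their MSC libraries, so the counts over these lists are descriptions. Such a value in at least 1 epithelial library was found in 2 of 11 paralogues, 0 of 5 E and ID genes, 2 of 4 transition factors, 2 of 6 adipocyte lineage factors and EBF partners and 7 of 10 other mesenchymal factors tested. Zeb2 averaged 69.5 RPKM in MSCs and 5.89 RPKM in epithelial cells (change 3.36 on the log2 scale, limma adjusted p = 3.0e-06), and Zeb1 28.2 and 3.45 RPKM (2.72, limma adjusted p = 1.02e-05). Snai1, at 2.60, and Snai2, at 1.08, also passed (limma adjusted p = 0.00101 and 0.0432). Of 5 E and ID genes, 3 were higher, among them Id3, whose product keeps E proteins from DNA, at 188 and 12.1 RPKM (3.88, limma adjusted p = 2.11e-06), and Tcf4, an E protein gene, at 21.5 and 4.84 RPKM (1.95, limma adjusted p = 7.14e-05). Tcf12 was the third (0.80, limma adjusted p = 0.0234).

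The paralogues divided. Of 11 tested, 6 were higher in lung MSCs, with Osr2 at 4.77 and 0.07 RPKM (log2 change 2.42, limma adjusted p = 6.7e-05), Klf7 at 2.28 and Prrx2 at 2.13 among them, and 2 were lower. Klf5, a factor of epithelial progenitors, was at 5.06 RPKM in MSCs and 42.1 RPKM in epithelial cells, a log2 fold change of -2.78 (limma adjusted p = 0.00019), the opposite direction to its relative Klf4. The second was Klf15, named after its values were seen (-0.98, limma adjusted p = 0.0368). Of 6 adipocyte lineage factors and EBF partners, 4 were higher, with Zfp521 (3.31), Zfp423 (2.86) and Cebpd (2.23) foremost, and Pparg, the master regulator of adipocytes, was lower at 0.28 against 2.98 RPKM (-1.59, limma adjusted p = 0.00519). Pparg was under 1 RPKM in all lung MSC libraries and entered the test through its epithelial libraries. Of 17 listed other mesenchymal factors 10 were tested and 9 were higher, led by Meox2 (4.28), Gli1 (2.82), Hic1 (2.80) and Heyl (2.66), and Runx1, named after its values were seen, was lower (-1.84, limma adjusted p = 0.00253).

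Across all 15 libraries the genes with the most similar pattern to each factor were ranked by Pearson's r of log2(RPKM + 1) over 9981 genes. The points share the 5 populations and are dominated by the gap between epithelial and other cells, so r is a description without a test. Ebf1 was most like Ebf2 (r = 0.984), and next came Nid1, which encodes the basement membrane protein nidogen-1 (r = 0.979), and Arrdc3. Ebf2 was most like Nid1 (r = 0.986) and Steap4 (r = 0.984), ahead of Ebf1. The mean of Nid1 was 715 RPKM in Il33+ WAT-MSCs, 803 RPKM in Il33- WAT-MSCs and 234 RPKM in lung MSCs, with 282 RPKM in endothelium and 11.5 RPKM in epithelium, the same division by tissue as the EBF genes.

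Klf4 was most like Fn1 (fibronectin, r = 0.986), Calu (r = 0.986) and Dpt (dermatopontin, r = 0.985). Osr1 was most like Col14a1, a collagen gene (r = 0.982), Pmp22 (r = 0.976) and Islr (r = 0.976). Prrx1 was most like Gpc3, which encodes the proteoglycan glypican-3 (r = 0.982), Selenop (r = 0.977) and Abi3bp (r = 0.976), and Gpc3 had the same order of populations as Prrx1, at 201 RPKM in lung MSCs, 102 and 69.9 RPKM in WAT-MSCs with and without the reporter, 46.0 RPKM in endothelium and 5.93 RPKM in epithelium. Twist2 was most like Srpx (r = 0.971), Mrc2, a collagen receptor gene (r = 0.968), and Fndc3a (r = 0.966), and Tcf21 was most like Socs1 (r = 0.969), Golim4 (r = 0.965) and Xpnpep2 (r = 0.961). Twist1 had lower values of r, its nearest genes being Ahdc1 (r = 0.892), Capza1 (r = 0.882) and Gm3893 (r = 0.879). It was at no more than 3.62 RPKM in any library, where adding 1 before the log compresses differences. Its lower r therefore cannot be read as a distinct pattern.

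Among the 8 genes themselves, r ranged from 0.529 between Twist1 and Ebf1 to 0.984 between Ebf1 and Ebf2. Klf4 and Osr1 followed at 0.955, Prrx1 and Osr1 reached 0.926, and Twist2 was closer to Tcf21 (r = 0.903) than to its paralogue Twist1 (r = 0.774). The low level of Twist1 limits what its r can show here too.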

How the data were processed

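RNA from 15 libraries, 3 for each of 5 sorted populations, was amplified and sequenced in 2 lanes (8 and 7 libraries). Alignment by the authors used TopHat2 within Partek (the submitters' notes name mm10), and they deposited RPKM values for 12698 transcripts with 2 decimals. The filter behind the list and the use of strand are not given in the sources used here. All value columns were matched to a sample by library name. RPKM was summed per symbol, since the list was per transcript, and log2(RPKM + 1) was tested with limma 3.58.1 (R 4.3.3, lmFit and eBayes with a trend) on the 6 libraries of each comparison, over genes with at least 1 RPKM in at least 3 of them. Fold changes are on this scale, which understates changes of low genes. Adjusted p-values are Benjamini-Hochberg over all genes tested, with a threshold of 0.05. An exact permutation test of 3 against 3 libraries cannot go below p = 0.1. The scripts were tested on simulated data with 200 changed genes in each comparison. A log2 change of 1 was recovered in 0% of these genes in all 4 comparisons. A log2 change of 2 was recovered in 32% (endothelial) to 80.5% (WAT against lung). Changes of this size can therefore miss the threshold.

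The 8 genes, although given by symbol, and the lists were chosen with earlier results of these data known. Named genes were the 8 genes, the 3 genes most alike to each by r, and from each list in each comparison up to 4 with the largest change past the threshold or, where none passed, up to 2 with the highest mean. The 8 genes were compared with markers of stromal, endothelial, epithelial, pericyte, mesothelial, leukocyte and adipocyte identity and with immediate early genes. The sum of 10 epithelial markers was 56.7 to 145 RPKM in WAT-MSCs, almost all of it Scgb1a1. Fabp4, the only listed adipocyte marker of 5, was at 187 to 397 RPKM in endothelial cells and 2.64 to 16.7 RPKM in WAT-MSCs. With Adipoq, Plin1, Cidec and Lep not listed, Fabp4 alone cannot tell adipocyte RNA from RNA of the sorted cells. Alternatives were a block for the replicate number, the lane as covariate or within-lane values, quantile normalization, median-ratio scaling, 1 fit over all 15 libraries, a pseudocount of 0.1, a filter of 5 RPKM or none, the most abundant transcript and each library left out. Replicate numbers were to count as pairs where the deviations of same-numbered libraries correlated by over 0.1 in all 3 pairs. No comparison reached this, although all 3 r were positive between Il33+ and Il33- WAT-MSCs (0.04 to 0.11) and between lung MSCs and epithelial cells (0.05 to 0.14).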

Additional observations from a re-analysis of the deposited data

How the results depend on the processing

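Over 119 refits of single genes in each comparison, and 105 in that with endothelial cells, the direction and side of the threshold were kept in 114 (Il33+ against Il33- WAT-MSCs), 117 (WAT against lung), 96 (endothelial) and 119 (epithelial). All 8 genes stayed higher in lung MSCs than in epithelial cells in every refit. Within lanes the sign was that of the pooled value in 13 of 16, 15 of 16, 14 of 14 and 16 of 16 values, lane 2 holding replicate 3 alone in the WAT populations.

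Between Il33+ and Il33- WAT-MSCs, Klf4 turned to -0.11 with quantile normalization, and with libraries left out in turn Klf4 ranged from -0.15 to 0.19, Ebf1 from -0.052 to 0.36 and Tcf21 from -0.35 to 0.88. Leaving out Il33+ replicate 2 turned Ebf1 and Klf4, and leaving out Il33- replicate 1 turned Tcf21 and Klf4. Between WAT and lung, Osr1 ranged from -0.25 to 0.10 (the latter without Il33+ WAT-MSC replicate 1) and the number of the 8 genes past the threshold from 1 to 2. Against endothelial cells that number was 3 in the fit of all 15 libraries, 1 (Twist2) with quantile normalization, 1 (Prrx1) with a filter of 5 RPKM and 0 to 2 with libraries left out. The causes were not tested.

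The number of all genes past the threshold between Il33+ and Il33- WAT-MSCs was 133, against 232 with a replicate block, 45 without a filter and 55 to 122 with libraries left out. With a fit of all 15 libraries it was 336 between WAT and lung (513 as reported) and 805 against endothelial cells (338), and with libraries left out 261 (without lung MSC replicate 2) to 502 and 131 to 447. Between Il33+ and Il33- WAT-MSCs each omission except that of Il33- replicate 1 gave 55 to 82 genes, and against endothelial cells omitting Il33+ WAT-MSC replicate 1, 2 or 3 or endothelial replicate 2 gave 131, 163, 151 and 150. With the replicate block the other comparisons gave 454, 335 and 4186 genes, and 0, 2, 0 and 8 of the 8 genes passed. Levels of Prrx1, Ebf1 and Ebf2 are sums over transcripts, and the most abundant transcript alone gave 17.6, 24.6 and 23.9 RPKM in Il33+ WAT-MSCs. Read counts behind the values were not used here, so no counting interval is given.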
